A study of Marmota monax with 203 samples.

Results

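This report follows 10 genes of bile acid synthesis and transport in the livers of woodchucks (Marmota monax) with chronic woodchuck hepatitis virus (WHV) infection. The genes were taken by symbol, namely SLC10A1, CYP7A1, CYP7B1, CYP8B1, CYP27A1, BAAT, ABCB11, ABCC2, NR1H4 and NR0B2, and all 10 were found among the 17587 genes with reads in the deposited files. RNA-Seq of poly(A) RNA was done on serial needle biopsies of each animal. The animals were born in captivity and had received the WHV7-11 inoculum as newborns 3 days old, and placebo animals carried the infection as well. One arm received placebo and the other recombinant woodchuck interferon-α (wIFN-α), injected under the skin 3 times a week for 15 weeks, with 20 µg per dose at weeks 0 and 3 and 100 µg per dose at weeks 7, 11 and 15. Week 0 is the week of the first dose, and the sample labels count 1 more than the weeks used here after the start. The placebo arm gave 12 biopsies at each of weeks -3, 0, 3 and 7, then 10, 9, 5 and 9 at weeks 11, 15, 19 and 23. The wIFN-α arm gave 11 at weeks -3 and 0, 9 at weeks 3 and 7, 8 at weeks 11 and 15, and 6 at weeks 19 and 23, with 1 biopsy per animal and week. Biopsies on treatment were taken 6 h after a dose. Weeks 19 and 23 are follow-up without treatment. Both arms held males and females, and no arm was free of WHV. Animal M1004 of the wIFN-α arm, which the study set aside as probably clearing the virus by itself, was left out. Levels are CPM, read counts scaled to library size, after TMM normalization, and the 149 biopsies used held between 12072840 and 84805845 reads on genes.

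Bile acids are made from cholesterol in hepatocytes. In the classic route CYP7A1, cholesterol 7α-hydroxylase, sets the rate, and CYP8B1, sterol 12α-hydroxylase, decides how much cholic acid is made. In the alternative route CYP27A1 hydroxylates the side chain and CYP7B1, oxysterol 7α-hydroxylase, follows. BAAT joins bile acids to glycine or taurine. ABCB11 (the bile salt export pump, BSEP) and ABCC2 (MRP2, which exports conjugated bilirubin and other anions) carry them into bile. SLC10A1 (NTCP) takes conjugated bile acids back up from portal blood and is also the entry receptor of human hepatitis B virus. The bile acid receptor NR1H4 (FXR) induces NR0B2 (SHP) and ABCB11, and NR0B2 represses CYP7A1 and CYP8B1. The deposited files give genes by symbol and assembled length without sequence, so levels and not sequences are described.

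Of the biopsies used, 3 stood apart. The week -3 biopsies of placebo animal F1016 and wIFN-α animal F1018 had 14.6% and 14.4% of their reads on 20 skeletal muscle genes (median of the other 147 biopsies, 0.0417%). Their hepatocyte markers took 0.495% and 0.283% of the reads, where every other biopsy had at least 5.18%. Of the 12 hepatocyte markers, 11 were below every other biopsy in both (albumin, ALB, at 112 and 31.8 CPM where no other biopsy was below 8270 CPM). The exception was TAT, with 5436 and 2611 CPM against a median of 2974 CPM elsewhere. SLC10A1 stood at 18.4 and 16.2 CPM where no other biopsy was below 139 CPM. In all, 21 of the biopsies used had more than 1% of their reads on the muscle genes, the next highest being F1021 (placebo) at week 3 with 11.9% and F1023 (wIFN-α) at week 0 with 7.80%. The third was the library labelled wIFN-α animal F1013 at week 3. It had 11.97 CPM of the interferon-stimulated gene IFIT1, inside the placebo range of 10.1 to 15.98 CPM, while the other wIFN-α biopsies of that week had at least 296 CPM. Its ISG15 level was 2.70 CPM, and the next lowest wIFN-α biopsy of that week had 660 CPM. Apart from that library, the agent label was borne out by MX1, ISG15, OAS1 and IFIT1, all of which were called higher in the wIFN-α arm at weeks 0, 3, 7, 11 and 15 (IFIT1 by 4.65 and 5.36 on the log2 scale at weeks 0 and 15) and at no other week. The 2 sequencing runs of placebo animal M1008 at week 15, which carry the same barcode, differed more than other run pairs for 5 of the 10 genes, by up to 0.29 on the log2 scale for ABCC2, and were summed.

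To put the genes on 1 scale, placebo levels were divided by the length of the assembled transcript. SLC10A1 was by far the most abundant, with a median of 493 CPM per kilobase over the 81 placebo biopsies (quartiles 416 and 587). The export pump ABCB11 had 38.7 CPM per kilobase (22.8 and 56.8) and ABCC2 had 29.0 (20.6 and 38.9). Among the enzymes, CYP7B1 had 50.9 CPM per kilobase (44.4 and 56.4), CYP8B1 48.0 (30.9 and 66.6), CYP27A1 34.0 (27.3 and 39.7) and BAAT 26.6 (19.5 and 31.2). The receptor NR1H4 had 30.2 CPM per kilobase (26.7 and 35.4) and NR0B2 21.7 (16.2 and 34.2). CYP7A1 was the least abundant, at 3.42 CPM per kilobase (1.43 and 8.40). The quartile ranges of SLC10A1 and CYP7A1 lay clear of all others, whereas those of each pair of neighbours from CYP7B1 down to NR0B2 overlapped. These ranges describe the spread among biopsies, and the order of neighbours among these 8 genes was not tested. Farther apart in the order the ranges separate, and the lower quartile of CYP7B1 lies above the upper quartiles of CYP27A1, NR1H4, ABCC2, BAAT and NR0B2.

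**Figure D1:**
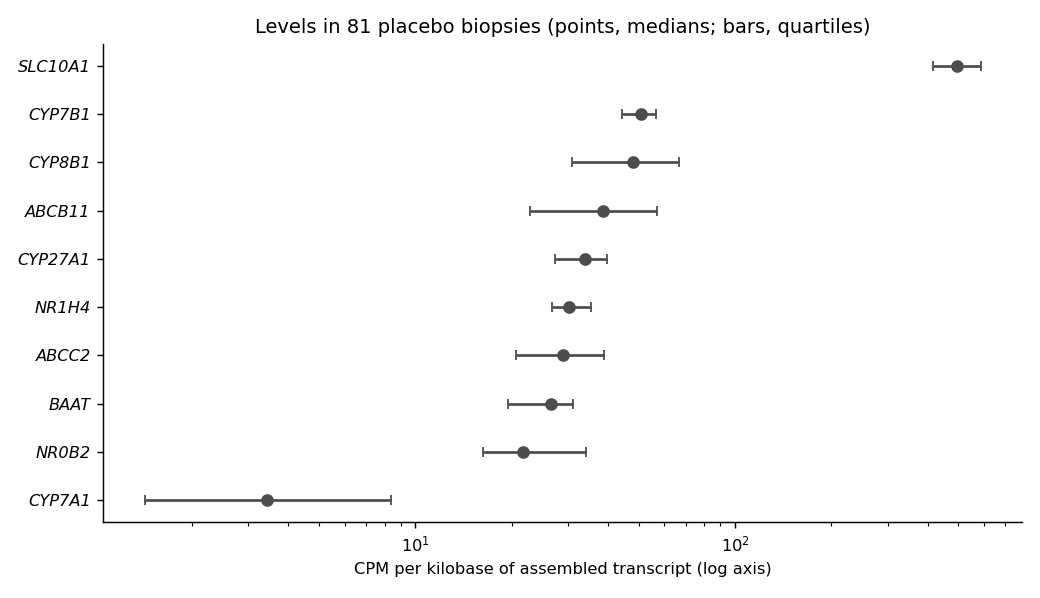
Level of each gene in CPM per kilobase of assembled transcript (log axis) over 81 placebo biopsies, with points for medians and bars for quartiles. SLC10A1 sits alone at 493 and CYP7A1 alone at 3.42, with the other 8 genes between 21.7 and 50.9.

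CYP7A1 was also the most variable of the 10. Its upper quartile in placebo biopsies was 5.88 times its lower quartile, against 1.27 times for CYP7B1, the steadiest. Medians of single placebo animals ran from 5.30 to 32.3 CPM for CYP7A1 and from 641 to 924 CPM for SLC10A1. Sequencing a biopsy again moved most of these values little. Over 39 pairs of runs the median absolute difference was 0.02 on the log2 scale for SLC10A1 and 0.11 for CYP7A1. The largest were 0.24 for SLC10A1 (M1008, week 15) and 0.79 for CYP7A1 (F1020, week -3). The SD among placebo animals within weeks was 0.66 and 1.22. It includes the muscle-rich week -3 biopsy of F1016, with 18.4 CPM of SLC10A1 where the placebo median was 813 CPM, and is widened by it. At week 7 placebo animals had 876 ± 121 CPM of SLC10A1 (SD, n = 12).

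All 10 genes passed the filter on low counts in every comparison. A gene was called where edgeR's quasi-likelihood test gave a Benjamini-Hochberg adjusted p below 0.05 over all genes tested and a fold change above 1.5. At week -3 none of the 10 was called between the arms, with 0.0% of all genes called (130 genes had an unadjusted p below 0.05). At week 0, after the first dose, 4 of the 10 were called, 3 lower and 1 higher in wIFN-α animals, where 18.5% of all genes tested were called (8.15% lower and 10.3% higher). None of the 10 was called at week 3, where 10.8% of genes were (7.24% higher and 3.54% lower). At week 7, the first biopsy at 100 µg, 4 were lower and 1 was higher (10.1% and 11.4% of all genes, 21.6% in all). Week 11 had 4 lower and none higher (7.98% and 12.6%, 20.5% in all), and week 15 had 5 lower and none higher (8.83% and 13.4%, 22.3% in all). At weeks 19 and 23 none was called, with 0.0% of all genes called at both (1859 and 2416 genes had an unadjusted p below 0.05). The median log2 fold change of the 10 was -0.55, -0.0019, -0.46, -0.33 and -0.61 at weeks 0, 3, 7, 11 and 15, while the median of all genes tested lay between -0.04 and -0.01 at these weeks. These are whole biopsies, in which fewer hepatocytes and less of an mRNA per hepatocyte cannot be told apart.

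The hepatocyte marker share gives the measured background for that. Its 12 genes took 8.40 to 11.3% of the reads in placebo biopsies at week 15 (median 10.3%) and 8.70 to 13.8% in wIFN-α biopsies (median 9.78%), so the arms overlapped. At week 7 the medians were 11.3% and 11.7%, and at week 11 they were 10.1% and 9.54%. At week 0 they were 13.9% in placebo and 12.7% in wIFN-α biopsies. The lowest wIFN-α biopsy of week 0 had 7.55%, where no placebo biopsy was below 10.5%. Single markers did differ, with 2 of the 12 called higher and 0 lower at each of weeks 7 and 15 (11.4% and 13.4% of all genes were called higher). The 12 had log2 fold changes from -0.38 to 0.85 at week 15. Markers of other cells also differed between the arms. The 13 T and NK cell markers together took 0.00970 to 0.0255% of reads in wIFN-α biopsies at week 15 and 0.00477 to 0.00768% in placebo biopsies, with no overlap, and none of them had a median of 0 reads. Of these 13 genes 9 were called higher at week 15. Of the 12 proliferation markers, 7 were called lower at week 0 and 11 higher at each of weeks 11 and 15 (median log2 fold changes -0.76, 1.62 and 2.29). Their summed share at week 15 was 0.0102 to 0.0360% in wIFN-α and 0.0107 to 0.0150% in placebo biopsies. At week 15 also 4 of 7 B and plasma cell markers tested and 4 of 10 macrophage markers were called higher and 1 macrophage marker lower. Stellate cell markers were called lower in 4 of 8 at week 3 and 5 of 8 at week 7. The 10 bile duct markers had medians of 0.0294% and 0.0206% at week 15 with overlapping ranges. The part of these cells in the results below was not tested.

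**Figure D2:**
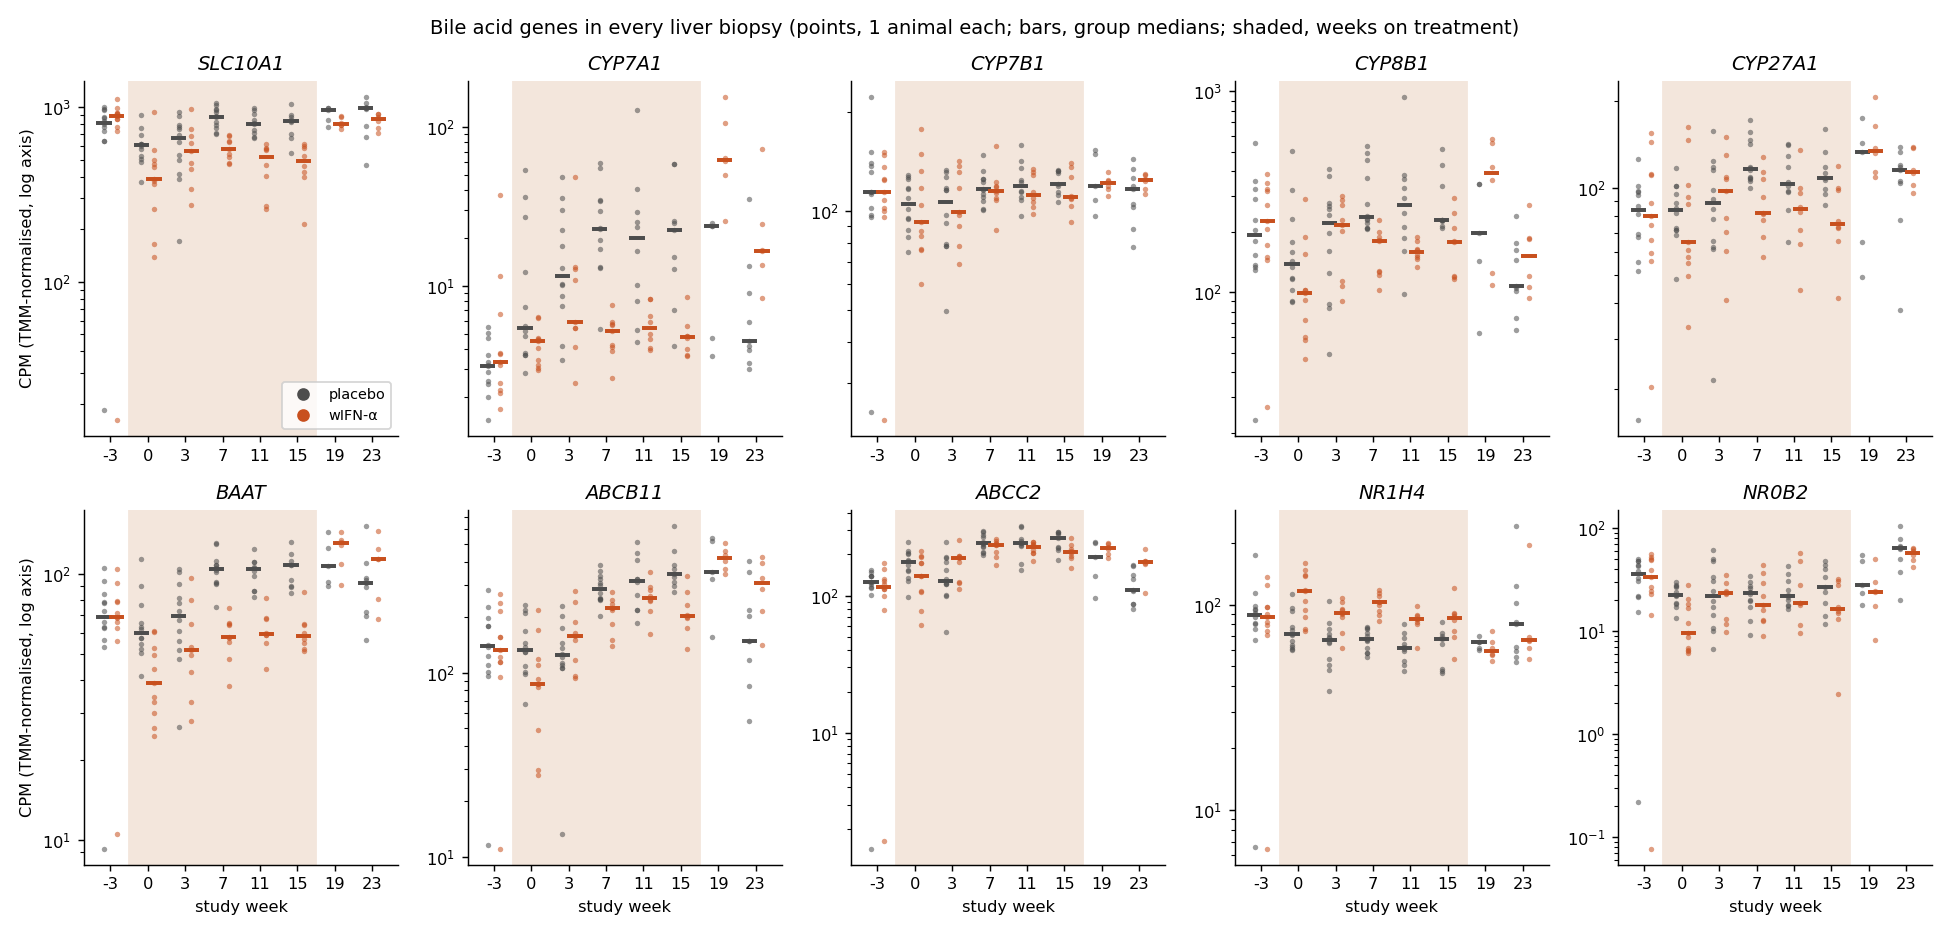
CPM (log axis) of the 10 genes in every biopsy used, by study week and arm, with 1 point per animal, bars for group medians and shading for the weeks on treatment. Both groups hold a very low SLC10A1 value at week -3 (18.4 and 16.2 CPM), and from week 7 to week 15 the wIFN-α points of SLC10A1, CYP7A1 and BAAT lie below most or all placebo points.

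SLC10A1, the bile acid uptake transporter, was lower on treatment at the 100 µg dose. Before treatment its level ran from 18.4 to 1001 CPM in placebo animals (median 813) and from 16.2 to 1119 in wIFN-α animals (median 890), the lowest values being those of the muscle-rich biopsies. At week 0 it lay between 375 and 898 CPM in placebo animals (median 605) and between 139 and 942 in wIFN-α animals (median 387). There 10 of 11 wIFN-α animals were below the placebo median, 4 of them below every placebo animal, and 1, M1002, was above every placebo animal. The log2 fold change was -0.53 (SE 0.23) with adjusted p = 0.0751, so no change was called at the first dose. The 2 lowest values, 139 CPM in F1023 and 164 CPM in M1006, came from the biopsies with the highest muscle shares of that arm at that week, 7.80% and 2.95%. At week 3 the ranges were 171 to 940 CPM (median 663) and 275 to 973 (median 558), with a log2 fold change of -0.13 (SE 0.25, adjusted p = 0.742).

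At week 7 the placebo animals had 705 to 1051 CPM of SLC10A1 (median 882) and the wIFN-α animals 471 to 689 (median 576). All 9 treated animals were below all 12 placebo animals. The log2 fold change of -0.59 (SE 0.09, adjusted p = 1.31e-05) is a fold of 1.51, just past the limit of 1.5. At week 11 the levels were 668 to 991 CPM (median 804) against 261 to 619 (median 519), again without overlap in 8 treated animals (log2 fold change -0.78, SE 0.16, adjusted p = 0.000891). At week 15 they were 547 to 1039 CPM (median 828) against 214 to 617 (median 492), and 5 of 8 treated animals were below every placebo animal (log2 fold change -0.73, SE 0.17, adjusted p = 0.00262). F1020 had the lowest treated level at both weeks, 261 and 214 CPM.

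CYP7A1 had the largest treatment difference of the 10. Before treatment it was low in both arms, at 1.43 to 5.50 CPM in placebo animals (median 3.15) and 1.67 to 37.3 CPM in wIFN-α animals (median 3.31). M1002 and M1007 held the highest of these values, 37.3 and 11.6 CPM, and the log2 difference of 1.10 (SE 0.46) was not called (unadjusted p = 0.0239). In placebo animals the median was 5.40, 11.6, 22.9, 20.0 and 22.6 CPM at weeks 0, 3, 7, 11 and 15, while in wIFN-α animals it was 4.48, 5.94, 5.20, 5.45 and 4.79 CPM. The treated medians thus stayed within 4.48 to 5.94 CPM throughout treatment, while the placebo medians at weeks 7, 11 and 15 were 20.0 to 22.9 CPM.

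At week 0 CYP7A1 ran from 2.85 to 53.9 CPM in placebo and from 2.97 to 6.33 CPM in wIFN-α animals, a log2 fold change of -1.68 (SE 0.47, adjusted p = 0.00659). The ranges overlapped, with 9 of 11 treated animals below the placebo median and none below every placebo animal. At week 7 they were 5.39 to 59.1 and 2.64 to 7.53 CPM, and the log2 fold change was -2.44 (SE 0.34, adjusted p = 2.85e-06), or 5.44-fold lower. All 9 treated animals were below the placebo median and 5 were below every placebo animal. At week 11 the ranges were 4.46 to 127 and 3.95 to 8.32 CPM (log2 fold change -2.32, SE 0.56, adjusted p = 0.00303), and at week 15 they were 4.20 to 58.8 and 3.63 to 8.45 CPM (log2 fold change -2.33, SE 0.44, adjusted p = 0.000359). Every treated animal was below the placebo median at both weeks, yet the lowest placebo animals, M1005 at week 11 and M1011 at week 15, were as low as the treated ones.

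Week 3 was the exception for CYP7A1, and its value moved with 1 library. Placebo animals had 3.44 to 48.5 CPM and wIFN-α animals 2.45 to 48.3 CPM, the highest treated level being that of the F1013 library, in which none of the 4 interferon-stimulated genes examined was above the placebo range. The next highest treated animal had 13.2 CPM. With F1013 the log2 fold change was -0.55 (SE 0.52, adjusted p = 0.483), and without F1013 it was -1.23 (SE 0.46, adjusted p = 0.0631), still short of a call. Among the other genes at week 3, BAAT moved from -0.34 to -0.48 and SLC10A1 from -0.13 to -0.27 without it, and none of the 10 was called either way. The arms also differed in muscle content that week. The muscle genes took a median of 0.783% of reads in placebo and 0.0441% in wIFN-α biopsies (maxima 11.9% and 2.89%).

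CYP8B1 was called lower in wIFN-α animals at weeks 7, 11 and 15, and its effect at week 15 did not differ by a call from the mean of weeks 0 and 3. At week 0 it had 89.1 to 507 CPM in placebo animals (median 139) and 46.8 to 292 in wIFN-α animals (median 98.8), which was not called (log2 fold change -0.66, SE 0.32, adjusted p = 0.12). The levels at week 3 were 49.4 to 410 CPM (median 221) and 90.5 to 301 CPM (median 217). At week 7 they were 207 to 537 (median 236) and 102 to 229 CPM (median 180), and 8 of 9 treated animals were below every placebo animal. The log2 fold change at week 7 was -0.92 (SE 0.21, adjusted p = 0.000934). At week 11, placebo animals had 98.3 to 936 CPM (median 271) and treated animals 133 to 188 CPM (median 158). The log2 fold change was -1.01 (SE 0.32, adjusted p = 0.017), although the treated range lay inside the placebo range. Week 15 gave 210 to 519 CPM (median 230) and 116 to 296 CPM (median 179), with 6 of 8 treated animals below every placebo animal (log2 fold change -0.65, SE 0.23, adjusted p = 0.0324).

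The 2 enzymes of the alternative route differed less between the arms. CYP7B1 did not pass the test at any week. Its medians in placebo and wIFN-α animals were 105 and 92.6 CPM at week 0, 117 and 115 at week 7 and 121 and 110 at week 15. The log2 fold change at week 15 was -0.05 (SE 0.08), and 2 SE on either side span -0.22 to 0.11, which leaves out a difference of 1.5-fold in either direction. CYP27A1 had medians of 117 and 82.0 CPM at week 7 (ranges 99.7 to 172 and 57.4 to 128), with 6 of 9 treated animals below every placebo animal. At week 15 its medians were 109 and 75.1 CPM (87.5 to 160 and 41.6 to 119), with 5 of 8 below every placebo animal. Its log2 fold changes of -0.47 at both weeks (SE 0.13 and 0.16, adjusted p = 0.00497 and 0.0298) passed the test but not the fold limit. At weeks 0, 3 and 11 CYP27A1 had log2 fold changes of -0.02, 0.06 and -0.34 and did not pass.

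BAAT, the conjugating enzyme, was called lower at 4 of the 5 treatment weeks. At week 0 placebo animals had 41.2 to 114 CPM (median 59.8) and wIFN-α animals 24.6 to 61.0 CPM (median 39.0), and 6 of 11 treated animals were below every placebo animal (log2 fold change -0.66, SE 0.17, adjusted p = 0.00361). At week 3 the medians were 69.7 and 51.6 CPM and the difference was not called (adjusted p = 0.299). At week 7 the levels were 74.9 to 131 CPM (median 105) and 38.0 to 74.6 (median 58.2), with all 9 treated animals below all placebo animals (log2 fold change -0.83, SE 0.11, adjusted p = 1.2e-06). Week 11 gave 82.2 to 124 and 43.8 to 81.4 CPM, again without overlap (log2 fold change -0.71, SE 0.10, adjusted p = 2.1e-05). Week 15 gave 84.6 to 132 CPM (median 108) and 51.5 to 85.6 CPM (median 58.4), with 7 of 8 below every placebo animal (log2 fold change -0.74, SE 0.11, adjusted p = 3.02e-05).

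The canalicular exporters behaved less uniformly. ABCB11 had 67.7 to 232 CPM in placebo animals at week 0 (median 133) and 28.0 to 219 in wIFN-α animals (median 86.9), which was not called (log2 fold change -0.57, SE 0.28, adjusted p = 0.124). At week 3 the treated median of 159 CPM was above the placebo median of 124 CPM (log2 fold change 0.32, SE 0.30, adjusted p = 0.477). At week 7 the medians were 284 and 223 CPM, a difference that passed the test without reaching the fold limit (log2 fold change -0.46, SE 0.12, adjusted p = 0.00429). At week 11 the medians were 314 and 253 CPM and the difference did not pass (log2 fold change -0.31, SE 0.19, adjusted p = 0.2). At week 15 the placebo animals had 273 to 625 CPM (median 341) and the treated animals 135 to 332 (median 203). ABCB11 was called lower there (log2 fold change -0.75, SE 0.18, adjusted p = 0.00268), with 6 of 8 treated animals below every placebo animal. ABCC2 was not called at any week. Its medians at week 15 were 265 and 208 CPM, and the log2 fold change of -0.24 (SE 0.11, adjusted p = 0.085) with 2 SE on either side spans -0.46 to -0.02.

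The receptor NR1H4 went the other way. At week 0 it had 60.1 to 112 CPM in placebo animals (median 71.5) and 74.6 to 160 in wIFN-α animals (median 117). All 11 treated animals were above the placebo median and 6 were above every placebo animal (log2 fold change 0.59, SE 0.14, adjusted p = 0.00139). At week 7 the levels were 55.7 to 77.4 CPM (median 67.7) and 83.0 to 117 (median 103), without overlap (log2 fold change 0.60, SE 0.07, adjusted p = 7.86e-07). At weeks 3, 11 and 15 the log2 fold changes were 0.43, 0.45 and 0.44 (SE 0.14, 0.10 and 0.14), past the test with adjusted p = 0.0294, 0.00173 and 0.0206 but under the fold limit. The folds at weeks 0 and 7, 1.51 at both, were themselves close to that limit. The call at week 0 was lost without M1003, M1007, F1013 or F1022 (0.53 to 0.57), and that at week 7 without M1007, F1020 or F1022 (0.57 to 0.58).

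NR0B2, which NR1H4 induces, was called lower at week 0, after the first dose. Its effects at weeks 3 and 0 did not differ by a call (log2 difference 0.49, SE 0.50, adjusted p = 0.704). At week 0 it had 13.4 to 29.6 CPM in placebo animals (median 22.4) and 6.07 to 28.2 in wIFN-α animals (median 9.47). Of 11 treated animals, 7 were below every placebo animal (log2 fold change -0.82, SE 0.24, adjusted p = 0.00845). Its medians at weeks 3, 7, 11 and 15 were 22.0, 23.2, 21.8 and 26.6 CPM in placebo and 23.6, 18.0, 18.8 and 16.3 CPM in wIFN-α animals. No difference was called there, and the SE of the log2 fold change at these weeks ran from 0.26 to 0.37.

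**Figure D3:**
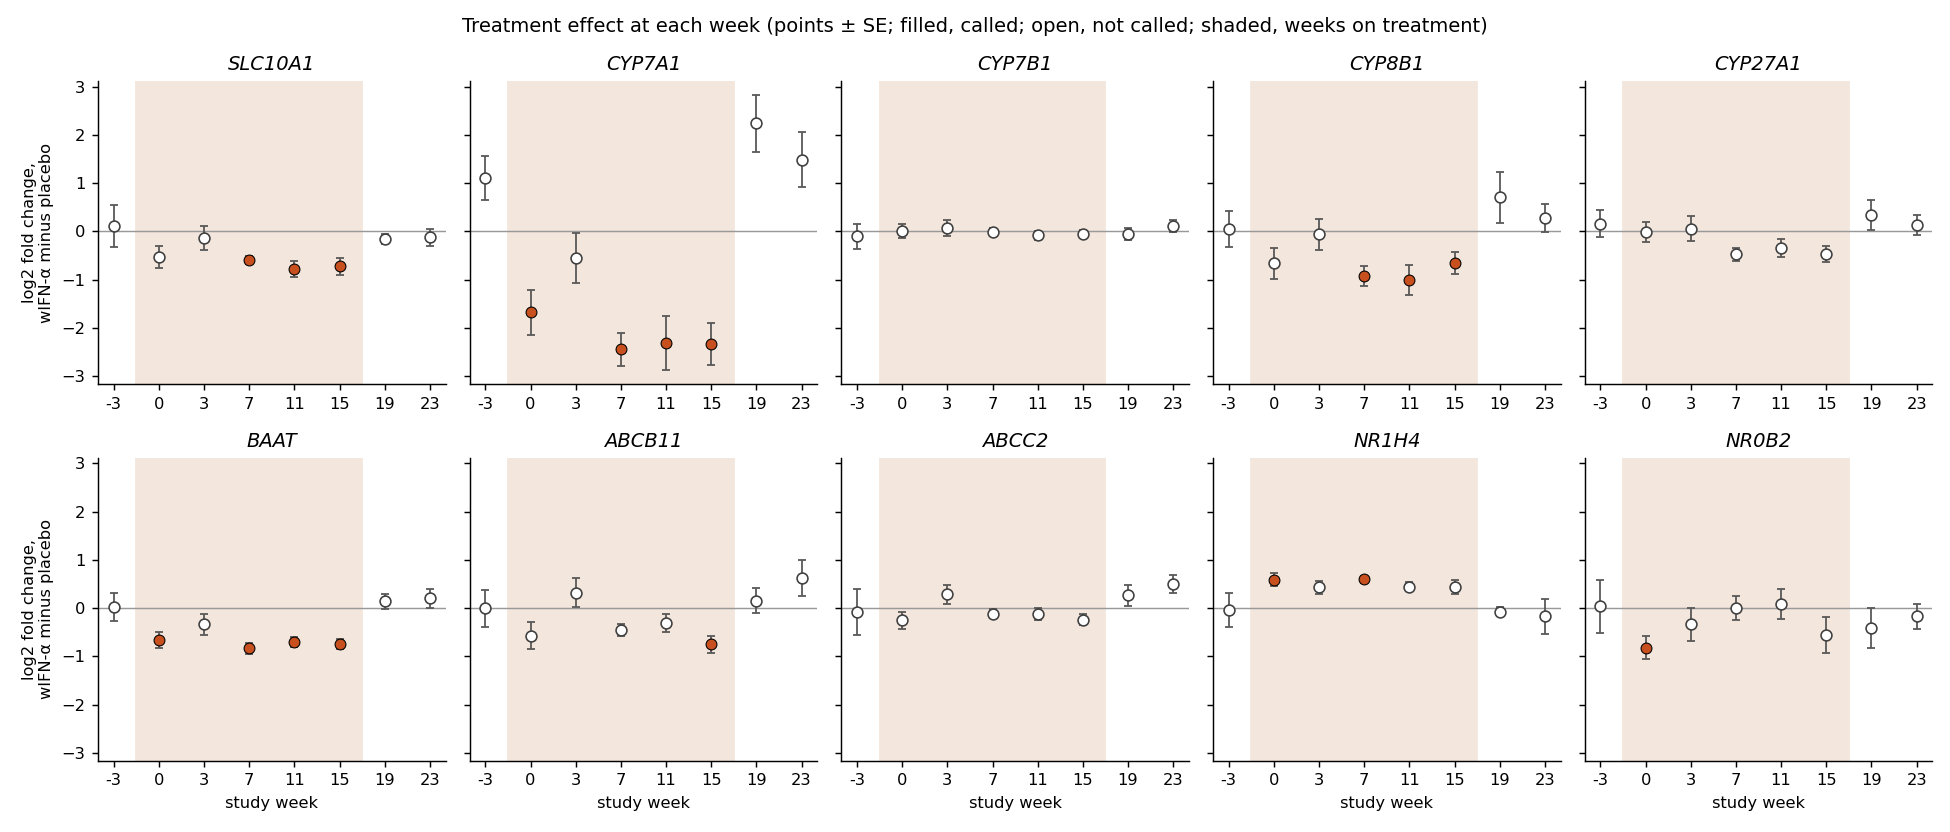
Log2 fold change between wIFN-α and placebo animals for each gene and study week, with bars of 1 SE, filled points for called differences and shading for the weeks on treatment. CYP7A1 reaches -2.44 at week 7 and is at 2.24, uncalled, at week 19, NR1H4 is above 0 at all 5 treatment weeks, and CYP7B1 stays within 0.11 of 0 at all 8 weeks.

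The same animals were biopsied at successive weeks, so the treatment effect was also taken as the change from week -3 with the animal as a replicate block. With all biopsies, this fit called 2, 2, 3 and 3 of the 10 at weeks 0, 7, 11 and 15, and 15.9%, 16.4%, 16.4% and 18.6% of all genes. It lost SLC10A1 at week 7 (log2 fold change -0.82, adjusted p = 0.0942), CYP8B1 at weeks 7, 11 and 15 (adjusted p = 0.081, 0.114 and 0.225), ABCB11 at week 15 (-0.93, adjusted p = 0.0697) and NR1H4 at weeks 0 and 7 (adjusted p = 0.0988 and 0.144). NR0B2 at week 0 was lost as well (adjusted p = 0.0802). This fit leans on the 2 muscle-rich week -3 biopsies, and without them, a choice made after seeing the data, it called 5 at each of weeks 0, 7, 11 and 15, and 17.1%, 18.4%, 18.7% and 21.3% of all genes. SLC10A1 was then called at weeks 0, 7, 11 and 15 (log2 fold changes -0.74, -0.87, -1.11 and -1.04) and CYP27A1 at weeks 7, 11 and 15 (-0.72, -0.67 and -0.78). CYP8B1 at week 15 (-0.77, adjusted p = 0.125) and NR1H4 at week 7 (0.54, under the fold limit) were not called. CYP7A1 and BAAT were called at weeks 0, 7, 11 and 15 in both blocked fits.

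The sample titles give 7 lane numbers, and each biopsy was put under that of its deepest run. Of 75 combinations of barcode and lane number, 68 are carried by more than 1 biopsy, so a lane number covers more than 1 flow cell. Within each lane number, over weeks 0 to 15, the mean log2 level of wIFN-α biopsies was below that of placebo biopsies in 7 of 7 for SLC10A1 (-0.89 to -0.18, pooled -0.60), CYP7A1 (-1.87 to -0.80, pooled -1.36), CYP8B1 (-1.18 to -0.23, pooled -0.59) and BAAT (-0.91 to -0.40, pooled -0.67). For NR1H4 it was above in 7 of 7 (0.25 to 0.60, pooled 0.50). ABCB11, CYP27A1 and NR0B2 were lower in 5 of 7, CYP7B1 in 4 and ABCC2 in 3.

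Whether the effect differed between weeks was tested as a difference of effects in a fit of all weeks, which took repeated biopsies of an animal as independent. Between the first dose and week 3, both at 20 µg, none of the 10 was called (2.4% of all genes were, 1.87% upwards). The largest differences were 1.14 for CYP7A1 (SE 0.66, adjusted p = 0.401) and 0.89 for ABCB11 (SE 0.39, adjusted p = 0.232), and the former was 0.46 (SE 0.68) without F1013. Between week 15 at 100 µg and the mean of weeks 0 and 3 at 20 µg none was called either (2.26% of all genes, 1.93% upwards). CYP7A1 differed by -1.24 (SE 0.63, adjusted p = 0.353), or -0.86 (SE 0.65) without F1013, ABCB11 by -0.65 (SE 0.37, adjusted p = 0.445) and SLC10A1 by -0.42 (SE 0.33, adjusted p = 0.637). Dose and time on treatment rose together in the same animals and cannot be told apart. With 2 SE on either side the CYP7A1 difference between week 3 and week 0 spans -0.18 to 2.45, so a large change of its effect was not resolved.

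After the end of treatment CYP7A1 was higher in the animals that had received wIFN-α than in placebo animals, without a call. At week 19 the 5 placebo animals had 3.60, 4.68, 23.7, 23.7 and 25.0 CPM, and the 6 wIFN-α animals 25.7 to 154 CPM (median 62.2). All 6 were above all 5, with a log2 fold change of 2.24 (SE 0.59) and adjusted p = 0.297 (unadjusted p = 0.0027). DESeq2 called it (2.24, adjusted p = 0.0089). At week 23 the levels were 3.01 to 35.3 CPM (median 4.50) and 8.42 to 72.4 CPM (median 16.6), where all 6 treated animals were above the placebo median (log2 fold change 1.48, SE 0.57, adjusted p = 0.275). SLC10A1 at week 19 had 770, 847, 964, 991 and 993 CPM in placebo and 747 to 885 CPM (median 799) in treated animals, with log2 fold changes of -0.16 (SE 0.10) at week 19 and -0.12 (SE 0.18) at week 23.

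The change of effect from week 15 to the mean of weeks 19 and 23 was called for 4 of the 10 genes, all upwards (27.8% of all genes were called, 11.5% upwards and 16.3% downwards). CYP7A1 changed by 4.22 on the log2 scale (SE 0.72, adjusted p = 8.66e-07), CYP8B1 by 1.17 (SE 0.47, adjusted p = 0.0488), ABCB11 by 1.17 (SE 0.41, adjusted p = 0.0233) and BAAT by 0.94 (SE 0.28, adjusted p = 0.00576). The CYP8B1 call was lost without any 1 of 8 wIFN-α animals (F1013, F1014, F1020, F1022, F1023, M1002, M1003 or M1007, adjusted p = 0.0504 to 0.12) and with limma-voom (0.0754). The ABCB11 call was lost without F1020 or M1003 (0.0502 and 0.0528) and with limma-voom (0.0811). SLC10A1 changed by 0.62 (SE 0.36, adjusted p = 0.213). Without the 2 muscle-rich week -3 biopsies, which enter this fit through its shared spread, 7 were called (and 32.0% of all genes), adding SLC10A1 (0.61, adjusted p = 0.0481), CYP27A1 (0.73, adjusted p = 0.0462) and ABCC2 (0.64, adjusted p = 0.015). The animals with both biopsies show the same values one by one. From week 15 to week 19, CYP7A1 was higher in 6 of 6 wIFN-α animals by 2.40 to 5.39 on the log2 scale, and in 2 of 5 placebo animals. BAAT and ABCB11 were higher in 6 of 6 treated animals (medians 0.96 and 0.94) and in 2 and 3 of 5 placebo animals. SLC10A1 was higher in 6 of 6 treated animals, by 0.35 to 0.94, and in 3 of 5 placebo animals. NR1H4 was lower in 6 of 6 treated animals, by 0.09 to 1.06, and higher in 3 of 5 placebo animals. The contrast also rests on the placebo arm, where CYP8B1 and ABCC2 were lower at week 19 in 5 of 5 animals and ABCB11 and CYP8B1 were lower at week 23 in 8 of 8.

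**Figure D4:**
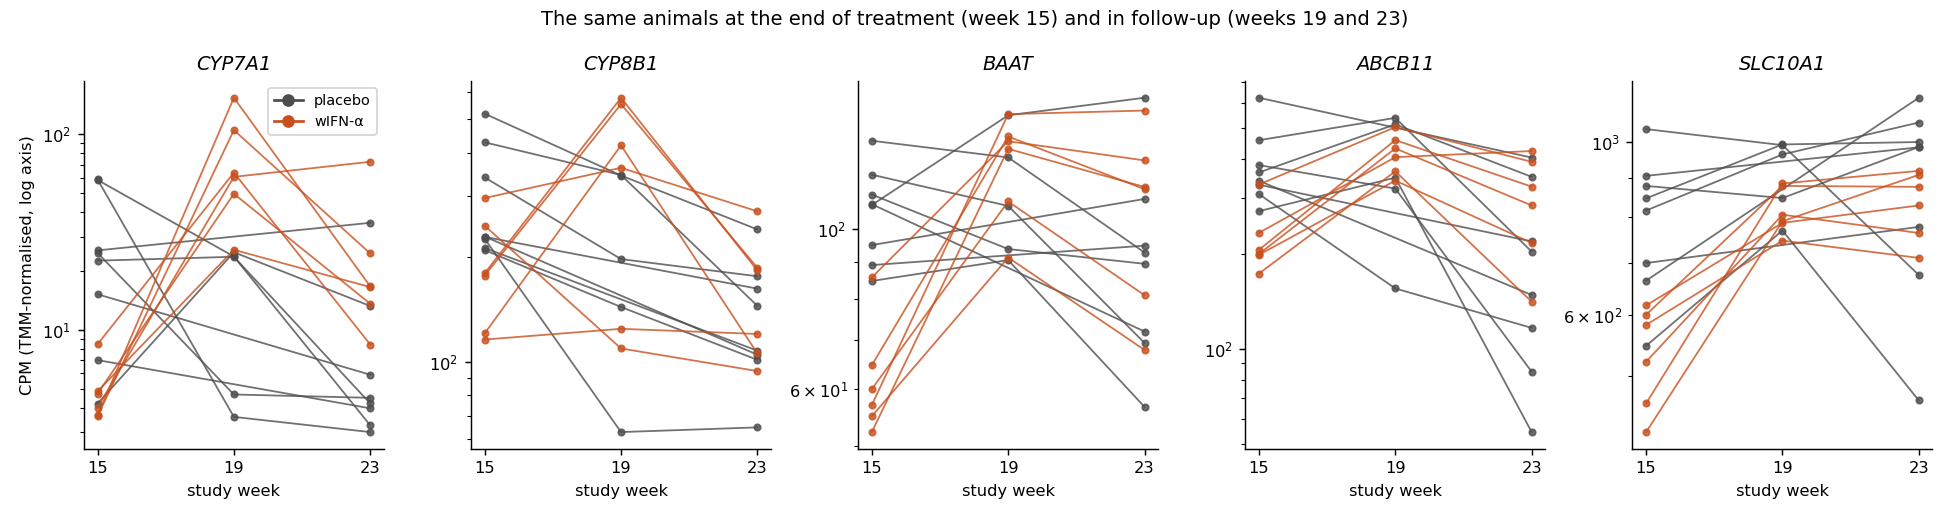
CPM (log axis) of 5 genes in each animal with a week 15 biopsy, joined by a line to its biopsies of weeks 19 and 23, by arm. CYP7A1 is higher at week 19 than at week 15 in all 6 wIFN-α animals, by 2.40 to 5.39 on the log2 scale, and in 2 of 5 placebo animals.

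Within the placebo arm, 8 of the 10 genes varied over the 8 weeks in a test of any change, where 68.0% of all genes did. This test had no term for the animal. ABCB11 had the smallest adjusted p (3.93e-07), followed by CYP7A1 (2.06e-05) and ABCC2 (2.28e-05), and SLC10A1 (adjusted p = 0.104) and CYP7B1 (0.482) did not pass. ABCB11 medians were 140, 133, 124, 284, 314, 341, 349 and 148 CPM at weeks -3, 0, 3, 7, 11, 15, 19 and 23, so that its levels from week 7 to week 19 were the high ones. ABCC2 medians were 126, 175, 128, 241, 243, 265, 191 and 111 CPM over the same weeks. NR0B2 went from medians of 35.4 to 22.4, 22.0, 23.2, 21.8, 26.6 and 28.2 CPM, and reached 64.3 CPM at week 23 (range 20.0 to 105). CYP7A1 had a median of 4.50 CPM at week 23, where 2 of 8 animals with both biopsies were above their own week 15 level. Against weeks -3, 0 and 3, the mean of weeks 15, 19 and 23 was called higher for ABCB11 (log2 difference 1.07, SE 0.17, adjusted p = 7.13e-07) and BAAT (0.59, SE 0.11, adjusted p = 2.36e-05), while 5.47% of all genes were called higher and 9.69% lower. BAAT, at the fold limit, was not called without F1016 at week -3 (0.54, with the animal as a block). Without week 23, a choice made after seeing the data, 5 of the 10 passed the test of any change, and 51.0% of all genes did. Age, season and time since infection cannot be told apart from week here. Titles of the week 23 samples of both arms, except that of M1001, carry a letter T that is not explained. Whatever it stands for cannot be told apart from week 23, here or in the change to follow-up.

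At week -3, females and males did not differ by a call in any of the 10 genes (0.0668% of all genes were called, 0.0334% in each direction, and 2585 had an unadjusted p below 0.05). The largest difference was that of CYP7A1, -0.89 for females minus males (SE 0.45, adjusted p = 0.31).

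The other genes of the pathway were read from 3 lists, of 17 other synthesis enzymes, 20 other transporters and 26 other regulators found in the files. Beside their counts stand the shares over all genes tested. At weeks 0, 3, 7, 11 and 15, 10.3%, 7.24%, 11.4%, 12.6% and 13.4% of all genes were called higher. Those called lower were 8.15%, 3.54%, 10.1%, 7.98% and 8.83%. Among the 15 enzymes that passed the filter, 0 were higher at any treatment week, and 1, 0, 1, 2 and 3 were lower at weeks 0, 3, 7, 11 and 15. Those called at week 15 were ACOX2, the peroxisomal oxidase that shortens the side chain of bile acid precursors, ACOT8, a peroxisomal thioesterase, and AMACR, a racemase of the same pathway. ACOX2 had 456 ± 125 CPM (SD, n = 9) with placebo and 167 ± 65.8 CPM (SD, n = 8) with wIFN-α at week 15, with all 8 treated animals below all placebo animals (log2 fold change -1.43, SE 0.23, adjusted p = 8.98e-05). It was lower at week 0 as well (-0.83, SE 0.29, adjusted p = 0.0293). ACOT8 and AMACR had log2 fold changes of -0.86 and -0.69 (adjusted p = 0.000593 and 0.00908). The median log2 fold change of the 15 at week 15 was -0.37.

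The 19 other transporters tested went both ways, with 1, 4, 5, 6 and 4 higher and 2, 0, 3, 1 and 2 lower at weeks 0, 3, 7, 11 and 15, and a median of 0.26 at week 15. ABCB4, the phospholipid floppase of the canalicular membrane, was higher at week 15 (means 106 and 167 CPM, log2 fold change 0.68, SE 0.11, adjusted p = 0.000122), with all 8 treated animals above all placebo animals. SLC10A5, a relative of SLC10A1, had means of 0.820 and 1.38 CPM. It is 1 of the 4 counted as higher at week 15, but only its treated mean reached 1 CPM, so nothing is read from its test. SLCO1A2, an organic anion uptake carrier, and ABCG5, one part of the sterol exporter, were lower (-1.03 and -0.64, adjusted p = 0.00934 and 0.00808). At week 0 the organic anion transporter SLC22A7 was lower (-1.13, SE 0.31, adjusted p = 0.00653), and ATP8B1, the flippase whose loss causes familial cholestasis, was higher (0.71, SE 0.15, adjusted p = 0.000612).

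Of the 26 other regulators, 1, 1, 2, 2 and 2 were higher and 6, 0, 7, 5 and 7 lower at weeks 0, 3, 7, 11 and 15, with a median of -0.05 at week 15. The glucocorticoid receptor NR3C1 was higher at week 15, with means of 32.2 and 68.9 CPM (log2 fold change 1.12, SE 0.11, adjusted p = 1.44e-07), and all 8 treated animals were above all placebo animals. MYO5B, the motor that moves exporters to the canalicular membrane, was lower in 8 of 8 (-1.14, SE 0.18, adjusted p = 7.79e-05). The xenobiotic receptor NR1I3 (CAR) was lower (-1.03, SE 0.17, adjusted p = 0.000134), as was the hepatocyte factor CEBPA (-0.99, SE 0.25, adjusted p = 0.00448). RXRA, the partner with which NR1H4 binds DNA, was lower at week 0, with means of 176 and 86.0 CPM (log2 fold change -1.03, SE 0.12, adjusted p = 1.59e-07) and no overlap in 11 treated animals. NR1I3 was lower at week 0 too (-1.26, SE 0.28, adjusted p = 0.00103). After treatment, the change of effect from week 15 to follow-up was called upwards for 6 and downwards for 1 of 16 enzymes. It was called upwards for 3 and downwards for 2 of 20 transporters, and upwards for 7 and downwards for 3 of 26 regulators. Over all genes, 11.5% were called upwards and 16.3% downwards in this contrast. None of the 3 lists had a called gene at week -3, 19 or 23.

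**Figure D5:**
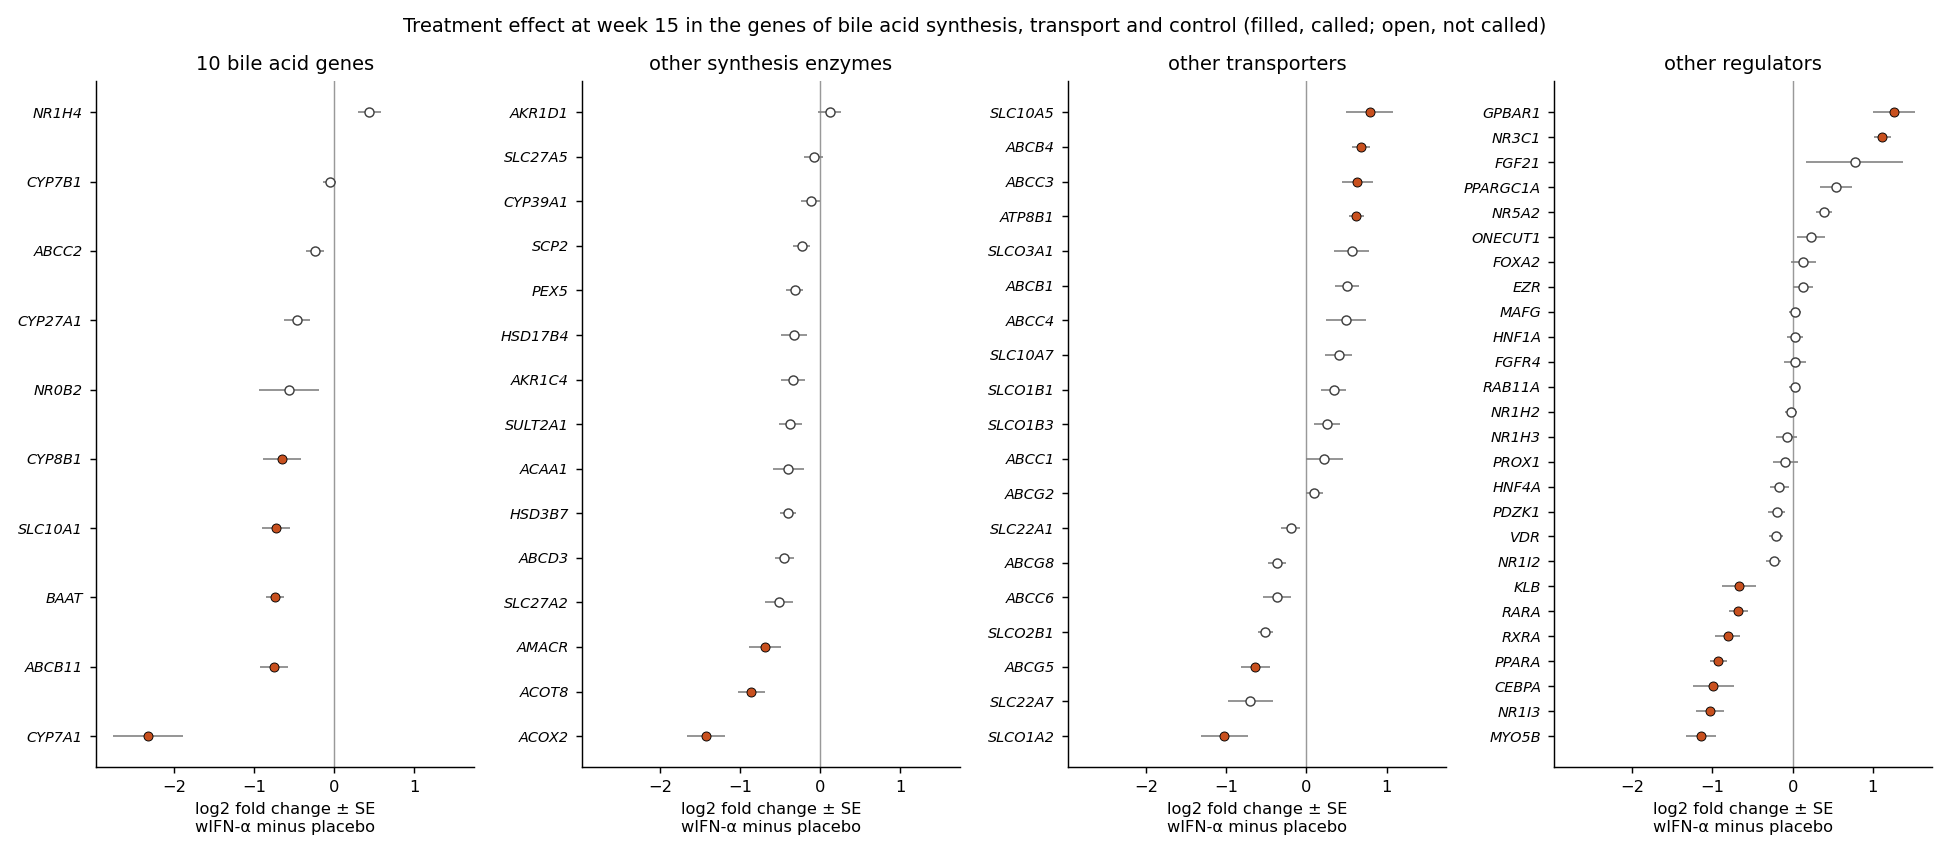
Log2 fold change at week 15 (wIFN-α minus placebo, bars of 1 SE) for the 10 genes and for the other synthesis enzymes, transporters and regulators that passed the filter, with filled points for called differences. The called enzymes all lie to the left of 0, down to -1.43 for ACOX2, while transporters lie on both sides, from -1.03 to 0.79.

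To describe which genes went along with SLC10A1 and CYP7A1 without treatment, Spearman's rho of log2(CPM + 1) was taken across the 81 placebo biopsies, which share animals, lane numbers and muscle content, among 13915 genes. SLC10A1 was most like SULT1A2 (0.84), CRYZ (0.84), METTL7A (0.82), LOC100506013 (0.80) and ACAA2 (0.80). In the 67 placebo biopsies without skeletal muscle CRYZ (0.78) and SULT1A2 (0.76) stayed among the first 5. Genes most like CYP7A1 included TM7SF2 (0.75), a sterol reductase of cholesterol synthesis, ECHDC1 (0.71), VWA3B (0.71) and LOC100302401 (0.70), and TM7SF2 (0.76) was the first in the 67. Among the 10 genes, the pairs most alike were BAAT with ABCB11 (0.78) and ABCB11 with ABCC2 (0.77), and the least alike were NR0B2 with CYP8B1 (-0.32) and with CYP7A1 (-0.23).

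SLC10A1 was also set beside the share of reads on WHV over the 12 placebo animals, as means of log2 values over the biopsies without skeletal muscle of each animal. This was the only relation of its kind computed. Pearson's r was 0.19 (permutation p = 0.555) and Spearman's rho 0.35 (permutation p = 0.265). Without F1024 and M1008, the 2 animals farthest from the median SLC10A1 level, r was 0.37 (permutation p = 0.292) and rho 0.56 (permutation p = 0.0968), so no relation was shown among 12 animals.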

How the data were processed

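Liver biopsies of 23 woodchucks in 2 arms were compared at 8 weeks. The authors made poly(A) libraries, sequenced paired reads of 50 nucleotides, mapped them to their woodchuck transcriptome assembly and counted them per gene, and the submitters' processing notes name CASAVA, FastQC, Bowtie2, SAMtools and DESeq. The deposited expected counts are unnormalized, with 118 of 3368022 nonzero entries fractional. The RPKM values that the authors deposited beside them served only to check the unit. Summing the 203 runs gave 164 biopsies, whose counts were rounded, and a gene not listed in a run was taken as 0. Of these, 149 biopsies were used (median 28754894 reads on genes). Left out were 7 of M1004 and 8 of other times or of animals labelled as died or found dead. Reads on the virus did not count towards library sizes. A week -3 title was followed where the time label disagreed.

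Counts were tested with edgeR 4.0.16 (R 4.3.3) by TMM, the default low-count filter, the quasi-likelihood F-test and Benjamini-Hochberg adjustment over all genes tested, with 1 fit per week for the arms. Differences of effect and the placebo course came from fits of all weeks. Differences of effect and the test of any change were called on the adjusted p alone, and the late minus early placebo contrast also needed a fold above 1.5. SE are the log2 fold change over the square root of F. Alternatives used DESeq2 1.42.0 and limma 3.58.1. The same animal carries the same number at each week. Over 13915 genes deviations from group means correlated with a median of 0.311 for biopsies of the same animal (above 0.1 in 328 of 450 pairs) and -0.02 for biopsies of different animals (4409 pairs). Permutation tests were two-sided with 100000 resamples. The fits were tested on simulated data with known changes. Python 3.11.15, numpy 2.4.6, scipy 1.17.1, pandas 2.3.3 and matplotlib 3.10.9 made the tables and plots.

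All 10 genes were described at every week. From the 3 other lists, up to 4 genes were named at week 15 and up to 2 at week 0, the called ones of largest absolute log2 fold change whose mean reached 1 CPM, and the 5 genes most like SLC10A1 and CYP7A1 by rank correlation, of which 1 is not reported here. The members, lists and tests were chosen with earlier results of these data known. CYP27B1, STARD1, SLC10A2, SLC51A, SLC51B, FABP6 and FGF19 of the lists had no row under these symbols. Each animal at a week gave 1 biopsy, so p-values of the fits per week measure the spread among animals. Fits of all weeks and of the placebo course took repeated biopsies of an animal as independent, except where blocked by animal. Their p-values therefore do not measure the spread among animals alone. The assembly's symbols can join close relatives.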

Additional observations from a re-analysis of the deposited data

Results flagged for a closer look

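In 10 of the 100 groups of 4 to 10 animals examined, 1 value lay far from the others. The rule flags about 5% of independent groups with normally distributed values. The groups here share animals and normality was not tested, so no comparison with chance is drawn from these 10 values. For CYP7A1 these were 48.3 CPM in F1013 (wIFN-α) at week 3, 127 CPM in M1008 (placebo) at week 11, 8.45 CPM in F1018 (wIFN-α) at week 15, 35.3 CPM in M1001 (placebo) at week 23 and 72.4 CPM in M1003 (wIFN-α) at week 23. The F1013 library is the one in which MX1, ISG15, OAS1 and IFIT1 were not above the placebo range. M1008 at week 11 also had the CYP8B1 value that stood apart, 936 CPM with 383 CPM next to it. NR1H4 stood at 242 CPM in M1001 (placebo) and at 195 CPM in F1013 (wIFN-α) at week 23, where the nearest animals of their groups had 123 and 69.9 CPM. F1022 (wIFN-α) had 157 CPM of CYP7B1 at week 7, and M1012 (wIFN-α) had 85.6 CPM of BAAT at week 15.

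The treatment effect differed between week 15 and follow-up, by the test of the difference itself, for CYP7A1 (4.22 on the log2 scale), CYP8B1 (1.17), ABCB11 (1.17) and BAAT (0.94), of which CYP8B1 and ABCB11 lost the call without single animals. CYP8B1 and ABCB11 were also lower at week 23 than at week 15 in 8 of 8 placebo animals.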

How the results depend on the processing

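The number of the 10 genes called was 4, 0, 5, 4 and 5 at weeks 0, 3, 7, 11 and 15 (18.5%, 10.8%, 21.6%, 20.5% and 22.3% of all genes). Where no share of all genes stands beside a count below, the count is not read as a result about the 10 genes. With a fold limit of 2 it was 1, 1, 2 and 1 at weeks 0, 7, 11 and 15. With the animal as replicate block it was 2, 2 and 3 at weeks 0, 7 and 15 (15.9%, 16.4% and 18.6% of all genes). With lane number as a covariate it was 3 at week 15. DESeq2 called 1 gene at week 19. For the placebo difference of late and early weeks (2 called, 15.2% of all genes), the replicate block and limma-voom gave 4 (15.1% of all genes with the block). RLE normalization and biopsies without skeletal muscle gave 1. So did the fits without the week -3 biopsy of F1016, with or without the block (13.2% of all genes in each), added after seeing the data. For the change from week 15 to follow-up (4 called), the count was 7 without muscle-rich biopsies and 2 with limma-voom. In alternatives added after seeing the data it was 1 with week 19 alone (14.8% of all genes, 27.8% in the main fit). It was 7 without the week -3 biopsies of F1016 and F1018 (32.0% of all genes). With the block and without them it was 8 (39.9% of all genes, NR1H4 downwards, -0.59). Without week 23, also added, any change in placebo animals was called for 5 genes and 51.0% of all genes (8 and 68.0% otherwise). Leaving out 1 animal at a time gave 3 to 6 at week 0, 3 to 5 at week 7 (3 without M1007), 4 to 4 at week 11, 4 to 5 at week 15, 0 to 0 at weeks 3, 19 and 23, 6 to 8 for any placebo change, 1 to 4 for the placebo difference (1 without F1016, F1021, M1001, M1009 or M1010, 4 without M1008) and 2 to 5 for the change to follow-up (2 without F1020 or M1003).

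Among single genes no alternative turned a called direction. SLC10A1 at week 7, at a fold of 1.51, lost its call in the fit without muscle-rich biopsies, in 1 fit of all weeks (adjusted p = 0.0639) and without M1007, M1012, F1014 or F1018. CYP8B1 at week 15 lost it without M1002, M1003, M1008, M1011, F1014 or F1016 (-0.62 to -0.53), in 1 fit of all weeks (adjusted p = 0.147) and with lane number (0.101), and ABCB11 at week 15 with lane number (0.0693). NR1H4 at weeks 0 and 7 and CYP8B1 and ABCB11 in the change to follow-up lost calls without single animals, as given above. NR0B2 at week 0 lost it with M1004 included (adjusted p = 0.0689), in 1 fit of all weeks (0.0568) and with lane number (0.0922). The adjusted p of CYP7A1 at week 19 ran from 0.0089 to 0.875 over the alternatives. The causes were not tested. The fewest reads in a biopsy were 2 for NR0B2 and 26 for both CYP7A1 and ABCC2.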

Other observations

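Some biopsies belong to no comparison. The labels place 4 of them at weeks without a group, and SLC10A1 and CYP7A1 stood at 902 and 25.8 CPM in F1017 (placebo) and 917 and 10.9 CPM in M1010 (placebo), both at week 17, at 1017 and 29.0 CPM in M1002 (wIFN-α) at week 25, and at 275 and 4.22 CPM in M1006 (wIFN-α) at week 2. The titles of these F1017 and M1010 samples mark them as from euthanized animals. For 4 more the labels give no week and say instead that the animal died, or for F1024 that it was found dead. Their SLC10A1 and CYP7A1 levels were 281 and 3.77 CPM in F1020, 133 and 3.88 CPM in F1023 and 513 and 4.44 CPM in M1007, all of the wIFN-α arm, and 628 and 20.5 CPM in F1024 of the placebo arm. In M1004 (wIFN-α), SLC10A1 was 1145, 526, 534, 479, 404, 398 and 643 CPM and CYP7A1 was 7.89, 5.62, 8.88, 6.04, 5.29, 7.54 and 47.9 CPM at weeks -3, 0, 3, 7, 11, 15 and 19.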
